A study of Rattus norvegicus with 320 samples.

Results

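miR-208a, miR-208b and miR-499 are microRNAs (miRNAs) whose hairpins lie inside genes for myosin heavy chains. The 6 mature miRNAs of the count table named rno-miR-208a, rno-miR-208b or rno-miR-499 with an arm suffix are described here, namely rno-miR-208a-3p, rno-miR-208a-5p, rno-miR-208b-3p, rno-miR-208b-5p, rno-miR-499-5p and rno-miR-499-3p, written below without the species prefix. They are 6 of the 616 miRNAs in the table. The rule for them uses names and no measured value, but they were chosen with earlier results of these data known. Small RNA was sequenced from 11 organs, which were heart, skeletal muscle, lung, kidney, liver, spleen, thymus, brain, adrenal gland, testis and uterus, of untreated Fisher 344 rats. Females and males were taken at week 2, week 6, week 21 and week 104 of age, with 4 rats for each organ, sex and age, and both sexes gave 8 rats per age in every organ except testis and uterus. Whole organs were ground and no cell types were separated, so that a lower level in an organ can come from fewer cells of a type or from less of the miRNA per cell, which cannot be told apart. The 2 libraries that the study removed for clustering with uterus, Brn_M_006_3 and Spl_F_104_4, were left out, which leaves 318 of 320 libraries.

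In the RefSeq annotation of GRCr8, the hairpin Mir208a lies within Myh6, Mir208b within Myh7 and Mir499a within Myh7b. Myh6 encodes the alpha cardiac myosin heavy chain, the fast isoform, and Myh7 encodes the beta isoform, which is used in heart and in slow skeletal muscle fibres. In rodent ventricles the beta isoform prevails around birth and the alpha isoform afterwards, and beta myosin returns under load, thyroid hormone loss and age. miR-208a is known from mouse work as a regulator of the beta myosin gene and of cardiac growth, with the Mediator subunit Med13 as a target, and miR-208b and miR-499 are known for promoting slow fibre genes in skeletal muscle, in part by repressing the transcription factor Sox6.

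The mature sequences as deposited are shown because the members differ by few bases in their seeds. Capitals mark the seed, bases 2 to 8 counted from the 5′ end. All 6 are identical to the mature sequences of RefSeq.
miR-208a-3p: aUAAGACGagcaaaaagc
miR-208b-3p: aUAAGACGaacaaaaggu
miR-499-5p: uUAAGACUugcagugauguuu
miR-208a-5p: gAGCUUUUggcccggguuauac
miR-208b-5p: aAGCUUUUugcucgcguuau
miR-499-3p: aACAUCACagcaagucugugcu
miR-208a-3p and miR-208b-3p are the only miRNAs of the table with the seed UAAGACG, and they differ from each other by G10A, A16G and C18U, with positions counted from the 5′ end. miR-499-5p departs from that seed by G8U. The 5p arms of miR-208a and miR-208b share the seed AGCUUUU, and the seed of miR-499-3p occurs in no other miRNA of the table. No other miRNA of the table lies within 1 mismatch of a member. Within the listed sequences at most 3 bases tell miR-208a-3p and miR-208b-3p apart. How many of these bases each counted read covered is not given, and the study's alignment tolerated a mismatched base.

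Levels are given as CPM, the count of a miRNA per 1000000 miRNA counts of its library. These totals ranged from 315550 to 10571766 counts with a median of 2848155, and in heart from 1479450 to 4673479. The striated muscle markers miR-1-3p, miR-133a-3p, miR-133b-3p and miR-206-3p summed to between 46895 and 93240 CPM in heart and to between 58857 and 181282 CPM in skeletal muscle, against at most 17055 CPM in any other organ. miR-206-3p, the skeletal muscle member of that list, had 303 to 1718 CPM in muscle and 0 to 16.0 CPM in heart, so the labels of both organs matched their markers. Replicates within an organ are separate rats. The organs were taken from the same 32 rats, so libraries of different organs share animals, and the labels do not say which. Tests between organs treated their libraries as independent.

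The members were heart miRNAs with unequal shares in skeletal muscle. Of all reads of miR-208a-3p, 96.0% came from heart libraries and 0.0590% from skeletal muscle. For miR-208b-3p these shares were 89.5% and 9.26%. miR-499-5p was the least restricted of the main arms, with 73.8% in heart, 8.50% in muscle and 17.7% in the other 9 organs. These shares are of summed raw counts, so they also depend on the number and depth of the libraries of each organ. By mean count per library the order was miR-208b-3p (1452), miR-499-5p (705), miR-208a-3p (261), miR-208a-5p (43.3), miR-499-3p (7.87) and miR-208b-5p (1.20), so that the last member is read from very few counts.

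miR-208b-3p had a median of 2555 CPM over 32 heart libraries, with a range of 807 to 14917 CPM. Skeletal muscle followed with a median of 507 CPM (170 to 1271 CPM), testis with 12.6 CPM, lung with 9.95 CPM and thymus with 7.71 CPM, and the medians of brain, liver, spleen, uterus, adrenal gland and kidney fell from 3.44 to 0.740 CPM. Heart and muscle overlapped over the whole age range, and every library of both organs lay above the highest adrenal gland, brain, kidney, liver, spleen, testis, thymus and uterus library. The lung library Lng_M_021_3 reached 246 CPM, inside the muscle range.

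miR-499-5p had a median of 1646 CPM in heart (1197 to 2312 CPM) and 222 CPM in skeletal muscle (52.0 to 782 CPM), with no overlap between both organs. Kidney came next with a median of 116 CPM (34.4 to 308 CPM), overlapping the muscle range. Thymus (50.9 CPM), brain (42.1 CPM), testis (41.4 CPM), adrenal gland (34.6 CPM) and lung (31.9 CPM) had overlapping ranges, and liver (18.6 CPM), spleen (17.4 CPM) and uterus (12.1 CPM) were lowest. It was the only member with more than 3 counts in all 318 libraries.

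miR-208a-3p had a median of 732 CPM in heart, with a range of 336 to 1433 CPM. The second organ was lung, not skeletal muscle, with a median of 13.2 CPM (6.30 to 48.3 CPM) and reads in all 32 libraries. Testis had a median of 2.32 CPM and thymus 1.21 CPM. Skeletal muscle had 0.436 CPM (0 to 3.05 CPM), with at most 6 counts in a library and 10 of 32 libraries at 0, and brain had 0.361 CPM, so muscle lay within the range of thymus. miR-208a-5p followed its sister arm, with 119 CPM in heart (39.0 to 227 CPM) and 1.99 CPM in lung. It had 0 counts in all 32 liver libraries, which together held 31873620 counts. Against the limit of 0.0941 CPM that 3 counts over the pooled liver libraries set, heart was at least 1455-fold higher.

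**Figure D1:**
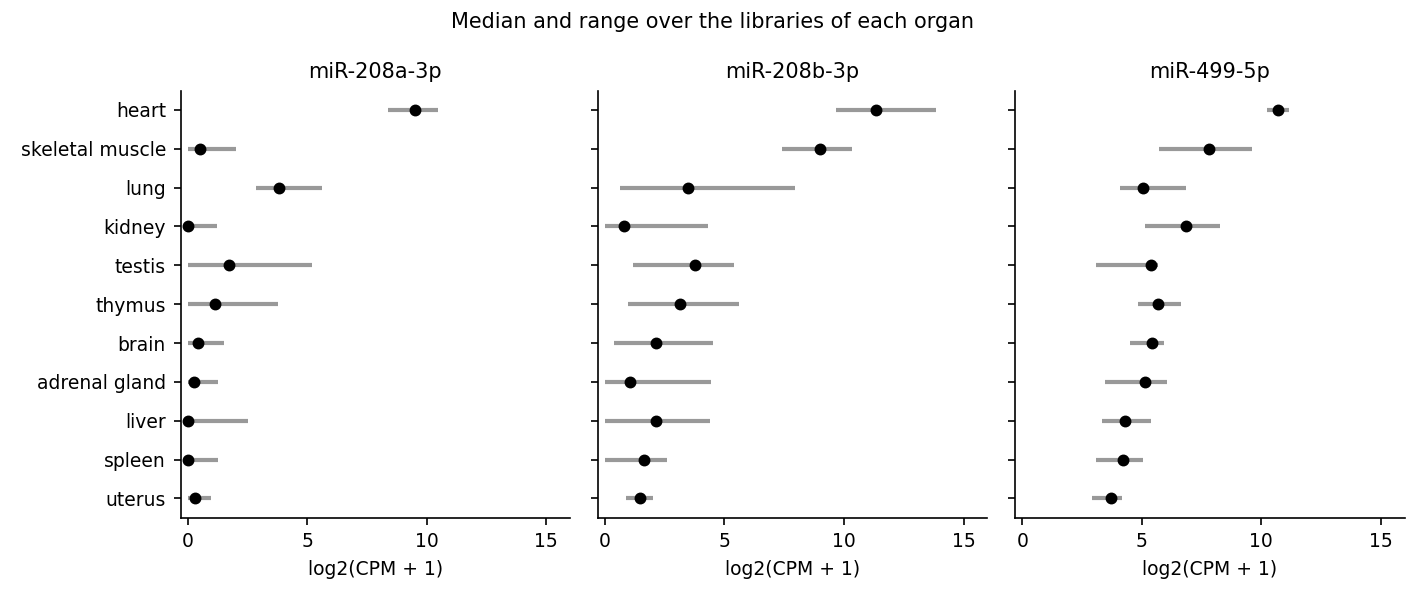
Level of miR-208a-3p, miR-208b-3p and miR-499-5p as log2(CPM + 1) on the horizontal axis in each of 11 organs, where dots are medians and grey bars run from the lowest to the highest library. Heart stands highest for all 3, skeletal muscle is second for miR-208b-3p and miR-499-5p but not for miR-208a-3p, and the bars of miR-499-5p stay above 0 in every organ.

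Organs were compared within each age by quasi-likelihood tests in edgeR, with counts scaled by TMM (trimmed mean of M values) and all organs of an age fitted together. Per the study, the week 2 spleen samples had low RNA integrity and the brain library Brn_F_104_4 a low proportion of miRNA reads. These libraries were kept, and the part of RNA quality was not tested. A miRNA was called where its p-value, adjusted over all 616 miRNAs by the Benjamini-Hochberg method, was under 0.05. miR-208a-3p, miR-208a-5p and miR-499-5p were higher in heart in all 40 comparisons (10 organs at 4 ages), which held for 1.14% of all miRNAs. The smallest heart excess was 4.37 on the log2 scale for miR-208a-3p and 4.26 for miR-208a-5p, both against testis at week 104. For miR-499-5p it was 1.23, against skeletal muscle at week 104. The other miRNAs with this pattern were miR-490-3p, miR-490-5p, miR-6314 and an entry of the table without a miRBase name. Without skeletal muscle, all 6 members were higher in heart in the remaining 36 comparisons, as were 2.60% of all miRNAs. miR-208b-3p missed the full set by 1 comparison, that with muscle at week 21, where its excess was 0.70 (SE 0.52, adjusted p = 0.260). miR-499-3p missed it against muscle at week 104 (0.47, SE 0.33, adjusted p = 0.257).

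Skeletal muscle was compared in the same way with the other 9 organs, heart aside. miR-208b-3p was higher in muscle in all 36 comparisons, as were 2.60% of miRNAs, with a smallest log2 excess of 4.29 against lung at week 21. miR-499-5p was higher in 34 of 36 and did not pass against kidney at week 2 and week 6. miR-208a-3p was higher in muscle in 5 comparisons and lower in 7, with the largest deficit against lung at week 21 (a log2 difference of -5.15). Its muscle counts, summed over 8 libraries per age, were only 7, 21, 6 and 15 at the 4 ages. The share of all miRNAs with such a split was not computed.

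Heart and skeletal muscle differed by an amount that depended on the member and on age. Of the 6 members, 6 were higher in heart at week 2, 5 at week 6, 4 at week 21 and 5 at week 104, against 26.6%, 38.3%, 31.0% and 26.9% of all miRNAs. None was called lower, against 32.5%, 27.6%, 22.2% and 19.3%. The log2 excess of miR-208a-3p was 10.74 (SE 0.43) at week 2, 9.81 (SE 0.42) at week 6, 10.20 (SE 0.56) at week 21 and 9.07 (SE 0.60) at week 104. These values rest on 7, 21, 6 and 15 muscle counts at the 4 ages, each summed over 8 libraries. From pooled counts the fold was 2812 at week 2, with a 95% exact interval of 1365 to 6995 that covers counting error only, and 875 (572 to 1414) at week 6.

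For miR-499-5p the heart excess was smaller at each later age, 4.13 (SE 0.17), 3.30 (SE 0.17), 2.20 (SE 0.21) and 1.23 (SE 0.19) on the log2 scale. All 4 values passed, with the largest adjusted p at 7.41e-08. The week 104 value was 1.93 with library totals and 0.72 without the rats numbered 1, both called. For miR-208b-3p it was 4.26 (SE 0.48) at week 2, 0.86 (SE 0.32, adjusted p = 0.0134) at week 6, 0.70 (not called) at week 21 and 2.21 (SE 0.41, adjusted p = 4.24e-06) at week 104. The week 6 call was kept in 3 of 10 other processings, whose log2 values ran from 0.11 to 1.03. Scaling by library totals in place of TMM moved the median of 460 miRNAs between heart and muscle by 0.52, -0.13, 0.46 and 0.72 at the 4 ages, which reversed none of these members' values.

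miR-208b-3p, the miRNA of the beta myosin gene, had the widest age range in heart among the major arms of the 3 hairpins. At week 2 it ranged from 6320 to 14917 CPM with a median of 9529 CPM, and at week 6 from 1152 to 1469 CPM with a median of 1378 CPM. At week 21 it ranged from 807 to 1799 CPM (median 1231 CPM) and at week 104 from 3311 to 4796 CPM (median 4053 CPM). All 8 week 2 hearts lay above all 8 week 104 hearts, and these above all hearts of week 6 and week 21, which overlapped.

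By edgeR over the 32 hearts, miR-208b-3p fell by 2.33 on the log2 scale from week 2 to week 6 (SE 0.14, adjusted p = 2.65e-16), a 5.02-fold decrease. From week 6 to week 21 it moved by 0.07 (SE 0.13, adjusted p = 0.791). From week 21 to week 104 it rose by 1.56 (SE 0.13, adjusted p = 8.92e-11), a 2.94-fold increase, and stayed below week 2 (-0.70, SE 0.13, adjusted p = 2.16e-05; -1.28 with library totals). The rise between week 21 and week 104 came at the step with the fewest called miRNAs in heart, 5.68% of all. The summed striated markers of heart had medians of 84701, 75296, 80921 and 68207 CPM at the 4 ages. The passenger arm miR-208b-5p followed on few counts, with medians of 6.90, 0.622, 1.06 and 3.11 CPM, and was called at 2 of the 3 steps (-2.70 and 1.33).

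miR-208a-3p, the miRNA of the alpha myosin gene, moved the other way from week 2 to week 6 and had a narrower range over the 4 ages. Its heart levels were 607 to 1113 CPM (median 795 CPM) at week 2, 741 to 1433 CPM (median 1183 CPM) at week 6, 489 to 741 CPM (median 660 CPM) at week 21 and 336 to 827 CPM (median 603 CPM) at week 104. Only 1 week 6 heart, at 741 CPM, lay as low as the highest week 21 heart, whereas week 21 and week 104 overlapped. It rose from week 2 to week 6 by 0.92 (SE 0.13, adjusted p = 9.13e-07; 0.40 with an adjusted p of 0.0393 when scaled by library totals), fell by 0.60 from week 6 to week 21 (SE 0.13, adjusted p = 7.67e-04), and differed by -0.24 from week 21 to week 104 (SE 0.13, adjusted p = 0.386). The 5p arm of the same hairpin had medians of 193, 178, 109 and 82.2 CPM at the 4 ages. With TMM it was called higher at the step to week 6 (0.47, SE 0.15, adjusted p = 0.0103) and lower at the steps to week 21 (-0.51, SE 0.15) and to week 104 (-0.72, SE 0.15). The step to week 6 was -0.06 with library totals and lost its call without the rats numbered 3 (0.32, adjusted p = 0.125). The step to week 21 lost its call without those numbered 2 (-0.49) or 4 (-0.36), and the step to week 104 with library totals (-0.56, adjusted p = 0.0610).

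miR-499-5p, the miRNA of Myh7b, had overlapping levels at all ages in heart. It ranged from 1558 to 2287 CPM (median 1998 CPM) at week 2, 1199 to 1720 CPM (median 1440 CPM) at week 6, 1334 to 2112 CPM (median 1679 CPM) at week 21 and 1197 to 2312 CPM (median 1543 CPM) at week 104. The step from week 6 to week 21 was called with TMM (0.43, SE 0.10, adjusted p = 0.00165) and not with library totals (0.25, adjusted p = 0.123), and the step from week 2 to week 6 was not with TMM (0.06, SE 0.10). The latter depended on scaling, since library totals gave -0.46 with an adjusted p of 0.00162. In the hearts that change of scaling moved the median of 460 miRNAs by -0.52 from week 2 to week 6, -0.18 to week 21, 0.14 to week 104 and -0.56 from week 2 to week 104. It also turned the called week 104 to week 2 difference of miR-499-5p (0.32 with TMM, -0.24 with library totals), and it reversed none of the called steps of miR-208b-3p and miR-208a-3p. miR-499-3p was called only between week 2 and week 104 (0.57, SE 0.17, adjusted p = 0.00523).

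Over the 6 members, 4 were called at the first heart step, 3 at the second, 3 at the last and 5 between week 2 and week 104, against 39.8%, 24.7%, 5.68% and 54.7% of all miRNAs. The muscle list beside them, 8 miRNAs from the miR-1, miR-133a, miR-133b, miR-206 and miR-486 families, had 3 higher and 1 lower at the first heart step with a median log2 change of 0.19 (0.05 over all miRNAs). At the second heart step 3 were higher, with a median of 0.42 (-0.06 over all). At the step to week 104, 1 was lower, miR-133a-3p at -0.40, with a median of -0.32 (0.05 over all), while miR-208b-3p rose. miR-133a-3p and miR-133b-3p are nearly identical in sequence, so the division of reads between them is uncertain.

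**Figure D2:**
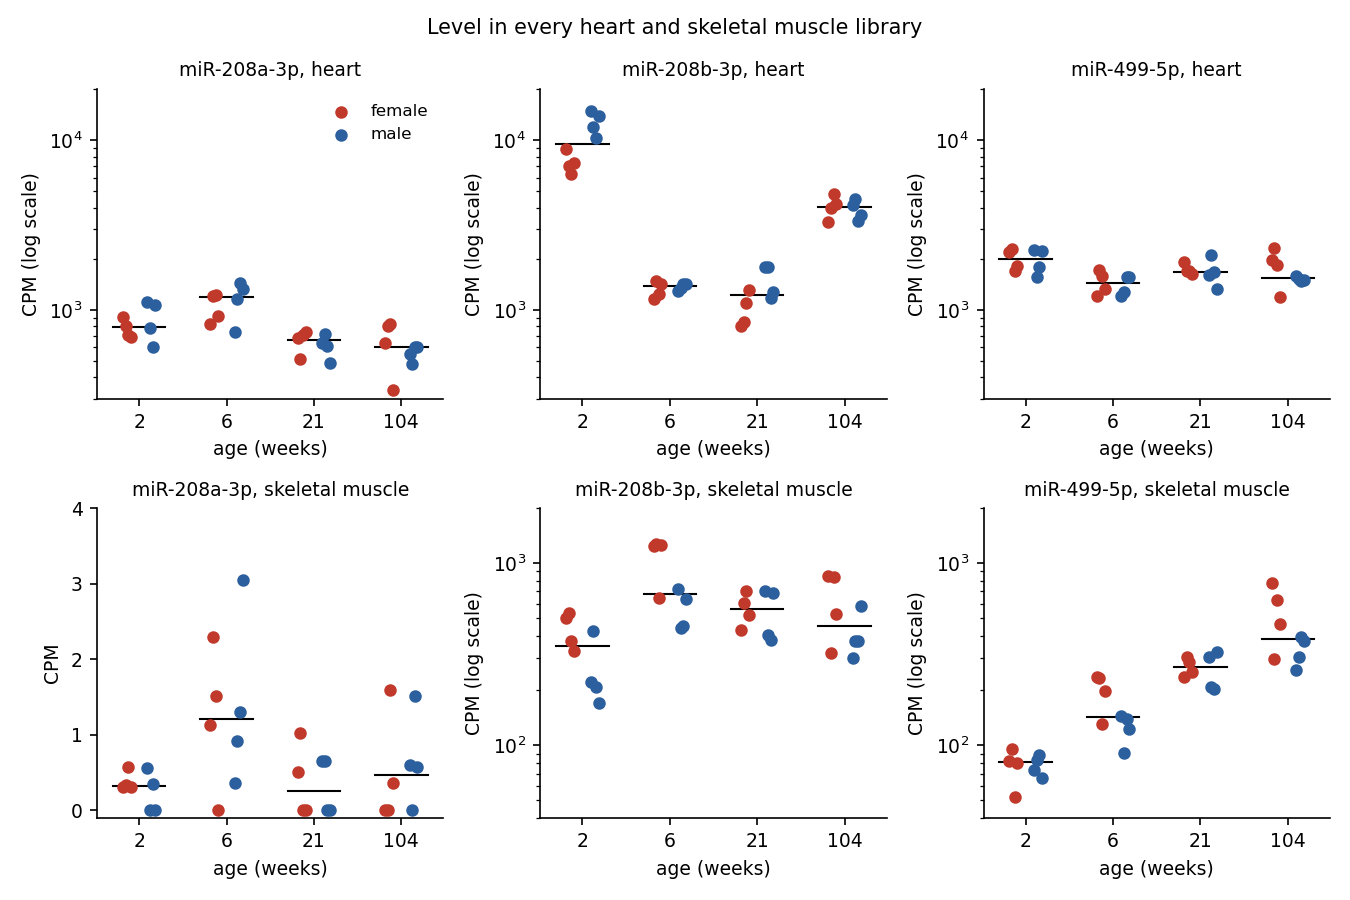
CPM of miR-208a-3p, miR-208b-3p and miR-499-5p in every heart and skeletal muscle library by age, on log axes except for miR-208a-3p in muscle, with a point per rat coloured by sex and a line at the median of each age. In heart miR-208b-3p drops between week 2 (6320 to 14917 CPM) and week 6 (1152 to 1469 CPM) and is back at 3311 to 4796 CPM by week 104, whereas in muscle miR-499-5p climbs from a median of 80.6 CPM to 385 CPM.

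The ratio of miR-208a-3p to miR-208b-3p compares miRNAs of the same library and does not depend on scaling. In heart, miR-208a-3p made up 8.05% ± 1.82 (SD, n = 8) of the reads of both miRNAs at week 2, 44.6% ± 5.05 at week 6, 34.4% ± 6.70 at week 21 and 13.3% ± 3.39 at week 104. The lowest and highest hearts were 5.60% and 10.3% at week 2, 36.5% and 50.3% at week 6, 26.2% and 45.8% at week 21, and 7.37% and 16.9% at week 104. No week 2 or week 104 heart reached the share of any heart of week 6 or week 21, and week 2 and week 104 overlapped.

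Differences in the mean log2 ratio, with 0.5 added to each count, were tested by exact two-sided permutation of 8 against 8 libraries, for which the smallest possible p is 1.55e-04, and adjusted over 12 tests (6 pairs of ages in each of both organs). From week 2 the ratio was higher by 3.23 at week 6 and by 2.60 at week 21, each with an adjusted exact p of 4.66e-04. From week 21 to week 104 it fell by 1.81 (adjusted exact p = 4.66e-04), and from week 6 to week 21 by 0.63 (adjusted exact p = 0.0109). At week 104 it was still 0.79 above week 2 (adjusted exact p = 0.00932). All 6 pairs of ages in heart thus passed.

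In skeletal muscle miR-208a-3p was 0.0883% of the reads of both miRNAs at week 2 (95% exact interval 0.0355% to 0.182%), 0.161% (0.0995% to 0.246%) at week 6, 0.0629% (0.0231% to 0.137%) at week 21 and 0.122% (0.0684% to 0.202%) at week 104, from pooled counts. These intervals cover counting error only. None of the 6 pairs of ages passed in muscle, the lowest adjusted exact p being 0.408. Each muscle library held 0 to 6 counts of miR-208a-3p. The log2 ratio was higher in heart than in muscle by 5.98, 8.91, 9.08 and 6.94 at the 4 ages, each with an adjusted exact p of 1.55e-04.

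**Figure D3:**
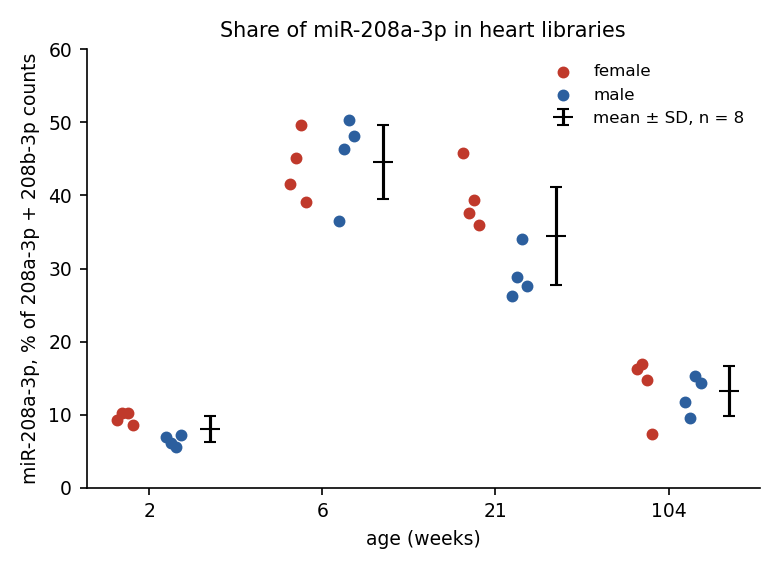
Share of miR-208a-3p in the summed counts of miR-208a-3p and miR-208b-3p in each of 32 heart libraries, in percent, by age, with points for rats coloured by sex and bars for mean ± SD of 8. The share is 8.05% at week 2, 44.6% at week 6, 34.4% at week 21 and 13.3% at week 104, and females lie above males at week 2 and week 21.

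Because both miRNAs carry the same seed, their sum is the level of UAAGACG seeds in an organ. In heart this sum had medians of 10287 CPM at week 2, 2479 CPM at week 6, 1802 CPM at week 21 and 4632 CPM at week 104. The lowest week 104 heart (3919 CPM) was above the highest week 6 heart (2846 CPM). In muscle the medians were 352, 682, 560 and 451 CPM, with miR-208b-3p as nearly all of the sum.

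The other ratios within a library were tested in the same way after the data had been seen, over 24 tests. In heart, miR-208b-3p relative to miR-499-5p was lower at week 6 than at week 2 by 2.38 on the log2 scale and higher at week 104 than at week 21 by 1.74, both with an adjusted exact p of 3.11e-04. miR-208a-3p relative to miR-499-5p was higher at week 6 than at week 2 by 0.85 (adjusted exact p = 3.11e-04), and between week 21 and week 104 it differed by -0.07 (adjusted exact p = 0.516).

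The arms of each hairpin were unequal. In heart the 5p arm gave 17.5% of the reads of the miR-208a hairpin at week 2, 13.7% at week 6, 14.4% at week 21 and 10.7% at week 104 (pooled counts). The log2 ratio of miR-208a-5p to miR-208a-3p was lower at week 104 than at week 2 by 0.88 (means -3.10 and -2.22, adjusted exact p = 3.11e-04) and lower than at week 21 by 0.50 (adjusted exact p = 0.00845). The 8 week 104 hearts had 7.98% to 12.7% and the 8 week 2 hearts 14.8% to 22.4%, without overlap. The 5p arm of miR-208b gave only 0.0543% to 0.0898% of its hairpin's reads in heart, and miR-499-3p gave 0.898% to 1.07% in heart and 1.25% to 1.64% in muscle.

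In skeletal muscle miR-499-5p was higher at each later age. It had 52.0 to 95.3 CPM (median 80.6 CPM) at week 2, 91.2 to 236 CPM (median 143 CPM) at week 6, 205 to 327 CPM (median 270 CPM) at week 21 and 258 to 782 CPM (median 385 CPM) at week 104. Only 1 week 6 muscle lay below the highest week 2 muscle, and no week 104 muscle reached down to week 2 or week 6. All 3 steps were called, with log2 changes of 1.30 (SE 0.17, adjusted p = 5.37e-08), 1.34 (SE 0.17, adjusted p = 2.67e-08) and 0.73 (SE 0.16, adjusted p = 0.00160). With TMM, week 104 stood 10.3-fold above week 2 (3.37 on the log2 scale), and the value with library totals, given below, was smaller. With library totals the second step was 0.75, still called. Its 3p arm had medians of 1.02, 2.11, 4.82 and 6.84 CPM and was called at the first (1.34) and second (1.67) steps, the first being kept in 2 of 8 other processings.

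miR-208b-3p in muscle rose between week 2 (170 to 531 CPM, median 352 CPM) and week 6 (439 to 1271 CPM, median 681 CPM), by 1.50 on the log2 scale (SE 0.22, adjusted p = 7.70e-07). It then differed by 0.08 at week 21 and by -0.06 at week 104 (both not called), with medians of 560 and 450 CPM. miR-499-5p relative to miR-208b-3p in muscle was therefore higher by 2.07 on the log2 scale at week 104 than at week 6 (means -0.24 and -2.30, adjusted exact p = 3.11e-04). The step of miR-208a-3p to week 6 was also called (2.16, SE 0.66, adjusted p = 0.00671), on at most 5 counts per library at that age.

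In muscle 4, 2, 1 and 5 of the 6 members were called higher at the first, second and last steps and between week 2 and week 104, against 19.5%, 13.6%, 6.49% and 28.1% of all miRNAs. No member was called lower, and the share of all miRNAs in that direction was not computed. Of the 8 miRNAs of the muscle list, 5 rose and 1 fell at the first muscle step, with a median log2 change of 0.65 (-0.05 over all miRNAs), with miR-133a-3p at 1.17, miR-1-3p at 1.01 and miR-133b-5p at -1.73. The summed striated markers in muscle were lowest at week 2 (58857 to 105612 CPM) and 105940 to 181282 CPM at week 104. Their part in the rise of the members was not tested. Scaling by library totals moved the median miRNA in muscle by -0.29, -0.55 and -0.06 at the 3 steps and by -0.91 from week 2 to week 104, where miR-499-5p was still called at 2.46.

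The age changes differed between heart and muscle, tested as an interaction in 1 fit of the 64 libraries. For miR-208b-3p the change from week 2 to week 6 was lower in heart than in muscle by 3.69 on the log2 scale (SE 0.28, adjusted p = 1.24e-16), and that from week 21 to week 104 was higher in heart by 1.54 (SE 0.27, adjusted p = 4.76e-05). For miR-499-5p heart lay below muscle at each step, by -1.12, -0.73 (called in 7 of 10 other processings) and -0.98, and by -2.83 from week 2 to week 104 (SE 0.20, adjusted p = 6.18e-19). At the 3 steps and from week 2 to week 104, 3, 2, 2 and 5 members were called, against 17.9%, 20.0%, 13.3% and 43.3% of all miRNAs.

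**Figure D4:**
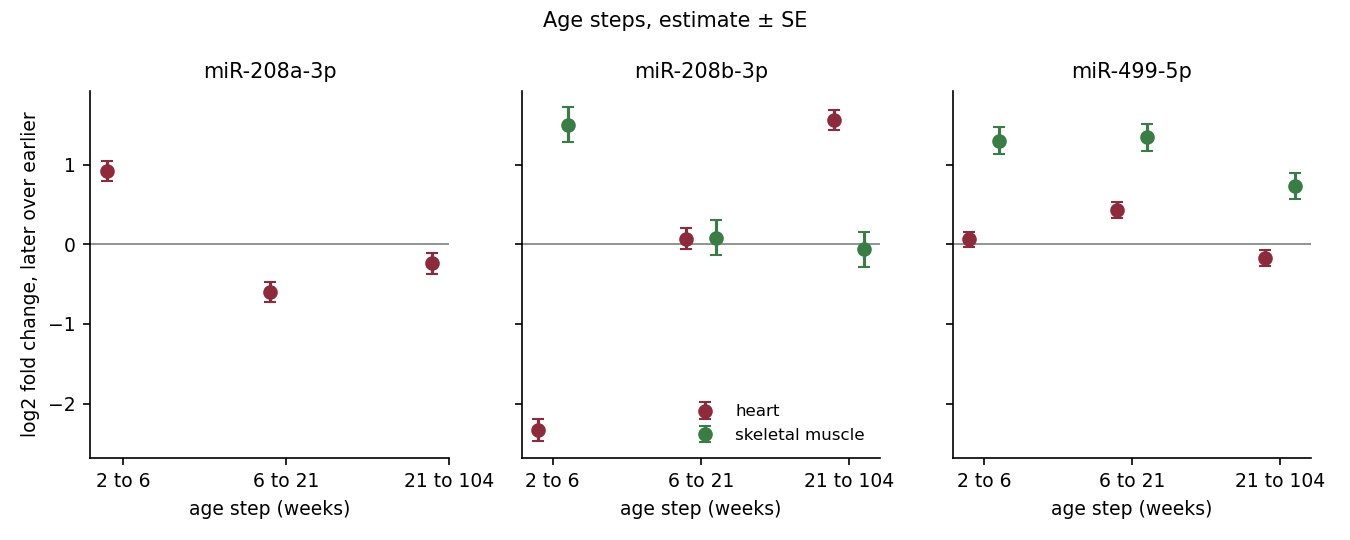
Log2 fold change of the later over the earlier age at each of 3 age steps for miR-208b-3p and miR-499-5p in heart and skeletal muscle and for miR-208a-3p in heart alone, with bars of ± 1 SE from the edgeR fits. miR-208b-3p falls by 2.33 in heart and rises by 1.50 in muscle at the first step, and miR-499-5p lies above 0 in muscle at all 3 steps (1.30, 1.34 and 0.73).

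No member was called between the sexes in heart, on average or at any age (0 of 30 tests, against 0.649% of all miRNAs for the average, 1.14% at week 2, 0% at week 6 and week 21 and 1.46% at week 104). At an unadjusted p under 0.05 there were 6 of 30, and DESeq2 called 2. The shares of all miRNAs for these counts were not computed, so no excess is read from them. The smallest adjusted p was that of miR-208b-3p at week 2, with 6320 to 8827 CPM in 4 females and 10231 to 14917 CPM in 4 males. The ranges did not overlap, and the log2 difference of females from males was -0.60 (SE 0.18, adjusted p = 0.0980 by edgeR). The same miRNA was lower in females at week 21 (-0.63, SE 0.18, adjusted p = 0.343 by edgeR), with 807 to 1317 CPM in females and 1181 to 1799 CPM in males.

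The share of miR-208a-3p in the reads of both miRNAs separated the sexes at the same ages. At week 2 it was 8.63% to 10.3% in females and 5.60% to 7.18% in males, and at week 21 it was 36.0% to 45.8% and 26.2% to 34.1%. The log2 ratio differed by 0.62 and 0.68, each with an exact permutation p of 0.0286, the smallest that 4 against 4 allows, and 0.0571 after adjustment over 4 ages. At week 6 and week 104 the difference was -0.09 and 0.09 (exact permutation p = 0.743 and 0.800). This comparison was added after the data had been seen. Whether a sex difference itself changed with age was called for no member (0 of 24 edgeR tests in heart). Of all miRNAs, 0.974%, 0%, 0.487% and 1.30% were called at the 3 steps and from week 2 to week 104. At an unadjusted p under 0.05 there were 6 of the 24 member tests, and DESeq2 called 1. For these counts, too, no share of all miRNAs was computed.

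In skeletal muscle 0 of 30 tests of sex were called by edgeR, against 0.812% of all miRNAs for the average and 5.68%, 0.649%, 0% and 0.974% at the 4 ages. There were 7 of 30 at an unadjusted p under 0.05 and 2 by DESeq2, again without a share of all miRNAs computed. miR-208b-3p was the member nearest to a call on average, higher in females by 0.55 (SE 0.16, adjusted p = 0.123). At week 6 the females had 642 to 1271 CPM and the males 439 to 720 CPM.

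The patterns over the 44 combinations of organ and age were compared by Pearson's correlation of mean log2(CPM + 1), as a description of points that share libraries and organs, among 453 other miRNAs. miR-208b-3p was most like miR-133a-5p (r = 0.937), miR-1-3p (0.926) and miR-133a-3p (0.906). miR-499-5p was most like miR-133a-5p (r = 0.747), miR-1-3p (0.746) and miR-1b (0.700). miR-208a-3p was most like miR-490-3p (r = 0.706), miR-24-2-5p (0.633) and miR-1-3p (0.609). Among the members the arms of a hairpin were closest for miR-208a (0.971) and miR-499 (0.957), and miR-208b-3p correlated with miR-499-5p at 0.825 and with miR-208a-3p at 0.728.

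Outside heart and muscle, the tests of age and sex per organ were added after the data had been seen. miR-499-5p in kidney had 34.4 to 107 CPM (median 58.7 CPM) at week 2, 104 to 266 CPM (median 161 CPM) at week 6, 61.0 to 308 CPM (median 133 CPM) at week 21 and 90.1 to 170 CPM (median 120 CPM) at week 104. It rose from week 2 to week 6 by 1.40 on the log2 scale (SE 0.12, adjusted p = 3.50e-12), a direction in which 17.0% of all miRNAs were called. The striated markers of kidney summed to at most 220 CPM in any library, with medians of 64.7 CPM at week 2 and 64.8 CPM at week 6. miR-499-5p also rose at that step in adrenal gland (1.60, SE 0.15), liver (1.40, SE 0.20) and brain (0.62, SE 0.10; 0.35 with library totals), where 15.1%, 12.2% and 23.5% of miRNAs were called higher.

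Kidney was also the organ in which a member was called between the sexes at single ages. Females had 60.5 to 107 CPM of miR-499-5p and males 34.4 to 56.8 CPM at week 2, and 176 to 266 CPM and 104 to 146 CPM at week 6. At week 21 females had 146 to 308 CPM and males 61.0 to 120 CPM, and at week 104 the sexes overlapped, with 90.1 to 152 CPM and 104 to 170 CPM. The CPM ranges of the sexes thus did not overlap at 3 of the 4 ages, which describes the ranges and is not a test. The average log2 excess of females was 0.64 (SE 0.08, adjusted p = 2.44e-06), where 1.95% of miRNAs were called in either direction, and at week 21 it was 1.23 (SE 0.17, adjusted p = 7.04e-06), where 1.95% were also called. The week 2 value (0.70, SE 0.17, adjusted p = 0.0109, 1.79% called) was called in 4 of 9 other processings.

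miR-208a-3p in testis was at most 1.83 CPM in the 4 libraries of week 21. At week 104 the 4 libraries had 21.7, 7.81, 6.57 and 35.4 CPM, from 97, 44, 48 and 261 counts, all above every testis library of the earlier ages. The log2 difference was 5.07 (SE 0.68, adjusted p = 5.05e-06), in a comparison in which 25.8% of miRNAs were called higher, and it ran from 3.83 to 5.50 in 9 other processings, all called. miR-208a-5p rose with it (3.59, SE 0.94, adjusted p = 0.00666). The share of miR-208a-3p in the reads of both miRNAs with the UAAGACG seed was 80.1% in these pooled libraries against 6.67% at week 21. The striated markers summed to 26.7 to 72.2 CPM at week 104 and 352 to 539 CPM at week 21, and miR-208b-3p had medians of 5.53 and 15.5 CPM, both lower at the later age. The libraries of week 104 were deeper, with totals of 4464215 to 7383298 counts against 1093929 to 1413760. Per the study, piRNA reads made up most of the testis libraries of adolescent and adult rats. Library totals in place of TMM moved the median of 460 miRNAs by -1.26 from week 21 to week 104. The part of depth and of library composition was not tested.

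**Figure D5:**
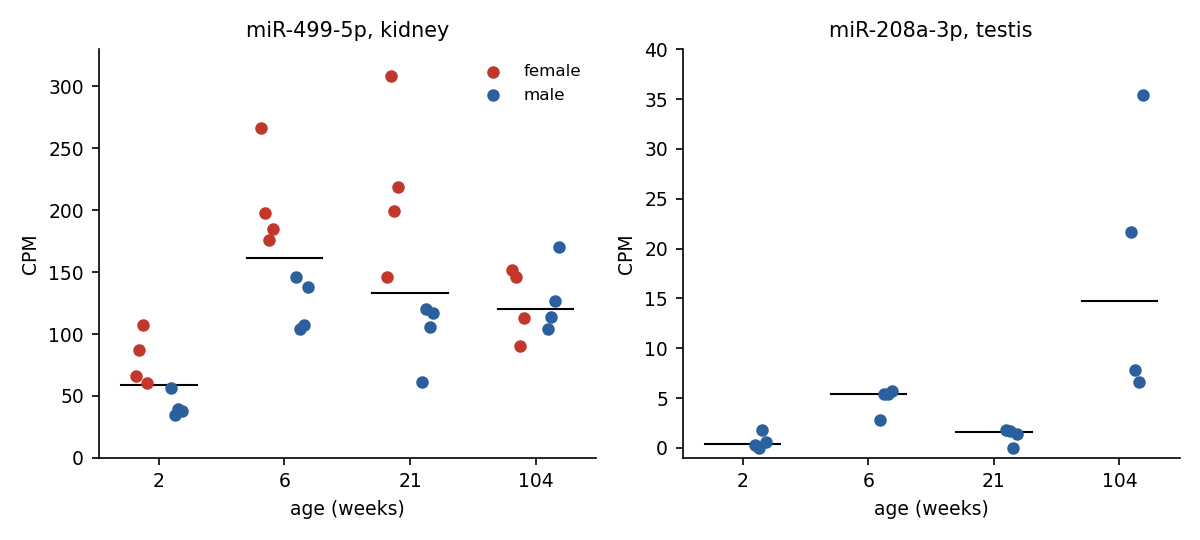
CPM of miR-499-5p in kidney and of miR-208a-3p in testis by age on linear axes, with a point per rat, coloured by sex, and a line at the median of each age. Kidney females (60.5 to 107 CPM at week 2) lie above males until week 21, and the 4 week 104 testes (6.57 to 35.4 CPM) lie above all younger ones.

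In lung miR-208a-3p had medians of 9.87, 14.5, 18.6 and 12.2 CPM at the 4 ages. The rise to week 6 (0.87, SE 0.31, adjusted p = 0.0289) and the fall from week 21 to week 104 (-1.06, SE 0.31, adjusted p = 0.0285) were called, where 15.1% of miRNAs were called higher and 6.33% lower, and they were kept in 6 and 5 of 10 other processings. miR-208b-3p in lung fell by 2.51 from week 21 to week 104 (SE 0.79, adjusted p = 0.0383), and without Lng_M_021_3 the value was -1.10 with an adjusted p of 0.348. That library had 246 CPM of miR-208b-3p and 16301 CPM of miR-133a-3p but 7.30 CPM of miR-208a-3p, the lowest of the 8 lungs of week 21. The summed striated markers of lung had medians of 2046, 2765, 3556 and 818 CPM at the 4 ages, and their part in these changes was not tested.

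In thymus miR-208b-3p declined, with medians of 12.3, 11.9, 6.97 and 3.51 CPM at the 4 ages and a log2 difference of -2.22 between week 104 and week 2 (SE 0.32, adjusted p = 2.80e-07), where 33.0% of miRNAs were called lower. miR-208a-3p was lower in female than in male thymus by 2.23 (SE 0.58, adjusted p = 0.0323), as were 1.95% of miRNAs. At week 6 the females had 0 to 2.03 CPM and the males 3.41 to 7.23 CPM. This call was lost with the sequencing lane in the fit (-1.55, adjusted p = 0.451), without the rats numbered 1 (-1.36, adjusted p = 1.00) and without those numbered 4 (-2.28, adjusted p = 0.108). miR-133a-3p in the thymus at week 6 was 67.9 to 448 CPM in females and 279 to 526 CPM in males, and its part was not tested.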

How the data were processed

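The values are raw counts of reads per miRNA and library, deposited by the authors as a table without normalization. Per the study's methods they removed adapters, filtered reads by length, aligned them to miRBase and other transcript collections and dropped miRNAs with a low mean count. The submitters' processing notes name fastp 0.23.2 and Bowtie 1.3.1. How reads longer than the listed mature sequences were counted is not given in the sources used here.

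CPM, shares, ratios and exact permutation tests were computed with SciPy 1.17.1, pandas 2.3.3 and NumPy 2.4.6 under Python 3.11.15, and Matplotlib 3.10.9 drew the figures. Age and sex were fitted per organ as groups of sex and age with edgeR 4.0.16 in R 4.3.3 (quasi-likelihood, TMM, Benjamini-Hochberg over 616 miRNAs, adjusted p under 0.05). Alternatives were library totals, DESeq2 1.42.0, a mean count of at least 10, sequencing lane or replicate number in the fit, and leaving out replicates. The lane of each library is the one listed by the study. Organs were fitted together within each age, and heart with muscle for the difference in age change. Named miRNAs were all members, the muscle and marker lists, and for each member the 3 others with the most similar pattern. The members and lists were chosen with earlier results of these data known. The fits were tested on simulated data. SE is the standard error of the log2 fold change. A count of 3 pooled over a group of libraries was taken as the limit of a count of 0, at 95% for counting error.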

Additional observations from a re-analysis of the deposited data

Results flagged for a closer look

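In 92 tests, each of 1 member in the 4 libraries of the same organ, sex and age, 5 libraries stood apart from the other 3. Chance gives about 1 in 20 such tests, so 5 of 92 is near that rate. miR-208a-5p was 89.9 CPM in the heart Hrt_F_006_1 and 177 to 187 CPM in the other 3 females of week 6. miR-208b-3p was 642 CPM in the muscle Msc_F_006_3 (others 1248 to 1271 CPM), 65.5 CPM in the lung Lng_F_006_1 (others 12.0 to 19.8 CPM) and 246 CPM in the lung Lng_M_021_3 (others 5.92 to 18.2 CPM). miR-208a-3p was 2.80 CPM in the testis Tst_M_006_1 (others 5.38 to 5.73 CPM).

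The change with age differed between heart and skeletal muscle in 9 tests of the interaction for miR-208b-3p and both arms of miR-499, given as log2 values of heart minus muscle from edgeR. For miR-208b-3p the difference was -3.69 from week 2 to week 6, 1.54 from week 21 to week 104 and -2.00 from week 2 to week 104. For miR-499-5p it was -1.12 from week 2 to week 6, -0.73 from week 6 to week 21, -0.98 from week 21 to week 104 and -2.83 from week 2 to week 104. For miR-499-3p it was -1.19 (adjusted p = 0.0465) from week 6 to week 21 and -3.07 from week 2 to week 104. Of these, the values -0.73 and -1.19 were called in 7 and 5 of 10 other processings.

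Both libraries left out here because the study removed them for clustering with uterus held the members at levels above those of their groups. The brain library Brn_M_006_3 had 42.0 CPM of miR-208a-3p, 240 CPM of miR-208b-3p and 135 CPM of miR-499-5p, against at most 1.05, 6.31 and 53.9 CPM in the other 3 male brains of week 6. The spleen library Spl_F_104_4 had 59.4, 356 and 188 CPM, against at most 0.675, 2.70 and 15.3 CPM in its group. Their miR-133a-3p was 7852 and 11935 CPM, against 180 to 413 and 125 to 133 CPM in their groups. Uterus had at most 3.08 CPM of miR-208b-3p in any of 16 libraries.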

How the results depend on the processing

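Of 796 values recomputed for 84 results, 704 kept direction and call, 60 lost a call, 12 gained a call and 20 changed sign. The organ comparisons of the members kept 3 or 4 of 6 members higher in heart throughout, and heart against muscle kept 14 to 21 calls (20 as reported), 14 where only 4 members passed the filter. With a mean count of at least 10, muscle age steps gave 6 calls against 12, since 2 members were tested. Sex in heart, with 0 calls as reported, gave 2 with DESeq2, 1 with the filter, 1 with lane, 2 with library totals, and 0 to 1 leaving out replicates. Sex in muscle, also 0, gave 2 with DESeq2, 1 with the filter, 2 with lane and 1 with library totals. With females or males alone the ratio of miR-208a-3p to miR-208b-3p gave 0 calls each. The smallest exact permutation p of 4 against 4 libraries is 0.0286, which passes after adjustment only where most tests adjusted together reach it.

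Signs changed in log2 values near 0 or under library totals. miR-208a-3p in heart from week 2 to week 104 (0.08) became -0.05 with DESeq2, -0.04 with the filter, -0.47 with library totals and -0.04 to 0.14 leaving out replicates. miR-499-5p in heart from week 2 to week 6 (0.06) became -0.09, -0.08, -0.46 and -0.01 to 0.11 in that order. Library totals also gave -0.06 for miR-208a-5p in heart at the first step, -0.12 for miR-208b-3p in heart at the second step, -0.24 for miR-499-5p in heart from week 2 to week 104, -0.51 for miR-208b-3p in muscle at the second step, -0.11 for miR-499-5p in kidney at the second step and -0.04 for its sex difference at week 104. For miR-208b-3p in muscle, lane gave -0.03 at the second step and leaving out replicates gave -0.08 to 0.16, and -0.15 to 0.00 at the last step. The filter gave -0.13 for its interaction from week 6 to week 21. Leaving out replicates gave -0.07 to 0.27 for miR-499-5p by sex in kidney at week 104. The cause was not tested.

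The labels do not say that replicate numbers mark a rat or a batch, and same-numbered heart and muscle libraries correlated from -0.37 to 0.39 in their deviations (median 0.05, 11 of 32 over 0.1, 9 of 32 best with their own number). With the replicate block the calls were 3, 20, 15, 12, 11, 0 and 0 for enrichment, heart against muscle, age in heart, age in muscle, the interaction and sex in both organs, against 12 for the interaction without it. Without Hrt_F_104_4, an analysis added after seeing the data, heart gave 14 calls in place of 15. In muscle miR-208a-3p, miR-208a-5p and miR-208b-5p rest on few counts, at most 6 in a library.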
